A study of Homo sapiens with 12 samples.

Results

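Messenger RNA of 6 death receptor genes was followed in human cancer cells in which the helicase gene WRN was targeted with CRISPR guides. The genes are FAS, the TRAIL receptors TNFRSF10A, TNFRSF10B, TNFRSF10C and TNFRSF10D, and TNFSF10, which encodes TRAIL itself. They were chosen by name, all 6 of 6 were found by symbol, and they are 6 of the 25343 genes in the count table. A WRN guide was carried by 4 groups: SW48 cells with sgWRN2, SW48 cells with sgWRN3, OVK18 cells with sgWRN2 and OVK18 cells with sgWRN3. The control groups were SW48 and OVK18 cells with sgCh2-2, a guide that cuts an intergenic site on chromosome 2. All groups express Cas9, and all were harvested 72 h after the guide was delivered. There were 2 libraries in each of the 6 groups, labelled A and B, and their total counts ran from 15423162 to 32581625. SW48 is a colorectal cancer line and OVK18 an ovarian cancer line. Each line is 1 genetic background, and the labels do not say whether the Cas9 cells are a clone or whether A and B come from separate cultures. The p-values therefore measure only the spread between these libraries, which may be technical.

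FAS and the TRAIL receptors belong to the tumour necrosis factor receptor superfamily and sit in the plasma membrane. FAS, TNFRSF10A (also called DR4) and TNFRSF10B (DR5) carry an intracellular death domain, which recruits the adaptor FADD and caspase-8 once a ligand has bound. TNFRSF10C (DcR1) lacks an intracellular domain, and TNFRSF10D (DcR2) has a truncated death domain, so both bind TRAIL without passing on the death signal and are known as decoy receptors. FAS and TNFRSF10B are textbook targets of the transcription factor p53, and the decoy genes have been described as p53 targets too. In the RefSeq table of GRCh38.p14 the 4 TRAIL receptor genes are neighbours on chromosome 8 in the order TNFRSF10B, TNFRSF10C, TNFRSF10D and TNFRSF10A, whereas FAS lies on chromosome 10 and TNFSF10 on chromosome 3.

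With sgWRN2 TNFRSF10D, a decoy receptor, was called higher by edgeR in both lines, and FAS in SW48. The calls of TNFRSF10D in OVK18 and of FAS in SW48 were lost in some alternative runs, given below. TNFRSF10A and TNFRSF10B did not pass that test in any comparison of a WRN guide with sgCh2-2. TNFRSF10A still had a log2 fold change of 0.43 in SW48 and 0.44 in OVK18 with sgWRN2, and another tool, DESeq2, called both. In each line DESeq2 was the only 1 of 24 alternatives to call TNFRSF10A. DESeq2 called more genes than edgeR with sgWRN2, 709 against 437 in SW48 and 430 against 113 in OVK18. So TNFRSF10D and TNFRSF10A differ in OVK18 mainly in the side of the threshold. DESeq2, again alone among the 24 alternatives, also called TNFRSF10B with sgWRN2 in SW48. TNFRSF10C held few counts and TNFSF10 almost none. With sgWRN3 alone no gene of the 6 passed in either line in the fit used here, which has no replicate term. Counts were tested with edgeR's quasi-likelihood test over 14199 genes, with Benjamini-Hochberg adjustment and a threshold of 0.05, and every adjusted p below is from that test unless another tool is named. Of the 6 genes 5 passed the filter on low counts; TNFSF10 did not, and TNFRSF10C passed only through its counts in OVK18.

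A RefSeq promoter window of 250 bases was matched for 2 of the 6 genes, FAS and TNFSF10. The FAS window shown here lies before the downstream start of the 3 FAS starts in the table, at chr10:88991181-88991430 on the plus strand of GRCh38.p14. It is intronic in each of the 4 FAS transcripts of the GENCODE basic annotation. It is printed because it was the only window of FAS or TNFSF10 with a match to the 10-base p53 motif, and FAS rose with sgWRN2 in SW48. This motif is a single unit of a p53 site. A full site holds 2 such units and was not searched for.
FAS window: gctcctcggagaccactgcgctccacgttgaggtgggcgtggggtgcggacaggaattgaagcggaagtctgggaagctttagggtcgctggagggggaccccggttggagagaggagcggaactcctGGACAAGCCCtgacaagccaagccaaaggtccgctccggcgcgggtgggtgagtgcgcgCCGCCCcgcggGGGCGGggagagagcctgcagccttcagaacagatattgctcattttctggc
The capitals mark the p53 motif GGACAAGCCC, 122 to 113 bases before the start, and the GC box GGGCGG on either strand, which is CCGCCC at 63 to 58 bases and GGGCGG at 52 to 47 bases before it. Both strands were searched, and the motifs marked do not overlap. The p53 motif was found in 5.573% of the 35116 windows of this length in the table, and the GC box in 42.64%. The other 2 FAS windows overlap and share the same GC box, which was the only match in them. The TNFSF10 window held a TATA box (TATAAA), which 10.72% of the windows held. These matches describe letters in a window and say nothing of binding in these cells, and the build of the windows is not the hg19 build of the deposited counts.

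Levels can be compared between genes only per transcript length, as FPKM. In SW48, TNFRSF10B stood at 47.0 ± 0.012 FPKM with sgWRN2, 43.8 ± 5.07 with sgWRN3 and 40.3 ± 1.63 with sgCh2-2 (mean ± SD, n = 2 libraries, as throughout). FAS, TNFRSF10D and TNFRSF10A followed in the SW48 sgCh2-2 libraries, at 17.9 ± 0.649, 14.5 ± 1.14 and 13.7 ± 1.93 FPKM. The ranges of TNFRSF10D and TNFRSF10A overlapped there. FAS lay above both, and TNFRSF10B above FAS. TNFSF10 at 0.0734 ± 0.0617 and TNFRSF10C at 0.0433 ± 0.0612 FPKM were the lowest, and did not differ beyond their spread.
In OVK18 sgCh2-2 libraries the order was TNFRSF10B at 62.4 ± 0.507 FPKM, TNFRSF10A at 17.1 ± 0.819, TNFRSF10D at 12.7 ± 0.421, FAS at 3.36 ± 0.193 and TNFRSF10C at 0.890 ± 0.195, with TNFSF10 listed at 0. Here the libraries of neighbouring genes did not overlap. TNFRSF10B was thus the most abundant of the 6 in every library of both lines, and the main difference in order was the place of FAS. With sgWRN2 TNFRSF10D reached 26.5 ± 1.34 FPKM in SW48 and 18.4 ± 0.992 in OVK18.

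**Figure D1:**
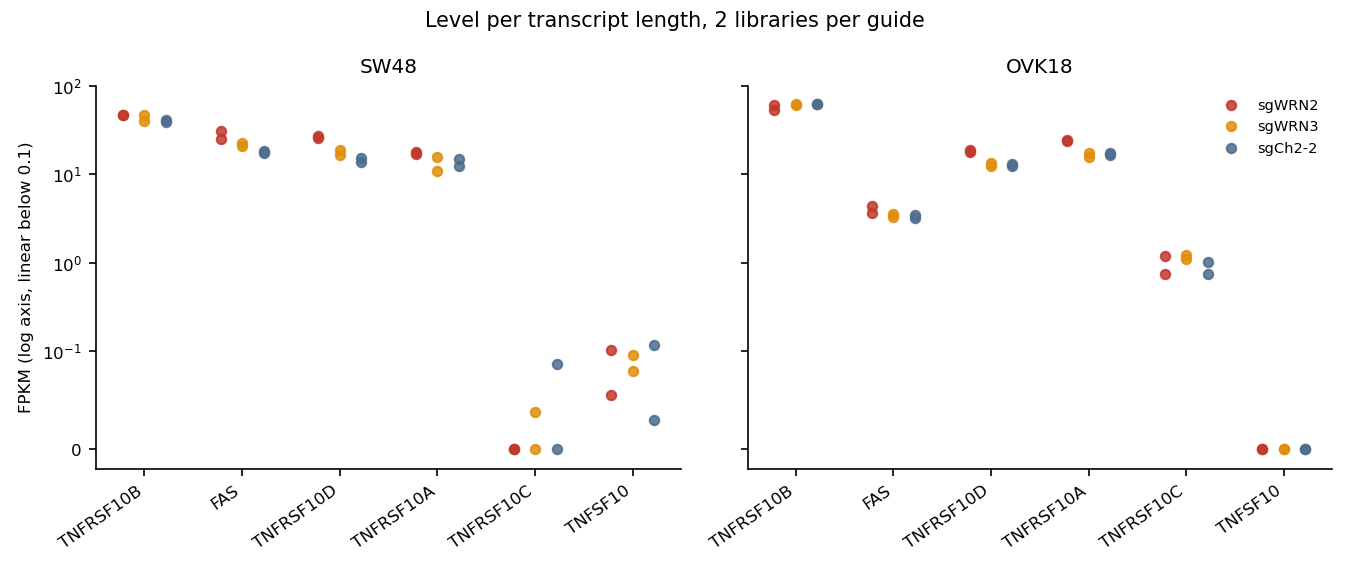
Level per transcript length (FPKM, logarithmic axis that is linear below 0.1) of the 6 genes in each library of SW48 (left) and OVK18 (right), with 2 points per guide. TNFRSF10B lies highest in both lines, FAS lies next to it in SW48 controls and below TNFRSF10A and TNFRSF10D in OVK18 controls, and TNFRSF10C and TNFSF10 lie near 0 in SW48.

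The lines differed in FAS, TNFRSF10A and TNFRSF10B between the sgCh2-2 libraries, with FAS higher in SW48 and the others lower. Of the 4 genes that hold counts in both lines, 1 was higher in SW48, against 33.9% of all genes tested, and 2 were lower, against 34.7%. Over both directions 3 of the 4 were called, against 68.6% of all genes, which is near the background. TNFRSF10C is left out of this count, since it passed the filter only through OVK18, where it is high. FAS was 5.11-fold higher, at 59.6 ± 4.98 CPM in SW48 against 11.6 ± 0.871 CPM in OVK18 (CPM is the count scaled to library size, here with TMM; log2 difference 2.35, SE 0.151, adjusted p = 2.56e-08). TNFRSF10B was lower, at 203 ± 3.79 CPM in SW48 against 318 ± 5.20 CPM in OVK18 (log2 difference -0.65, SE 0.085, adjusted p = 2.3e-05). Both differences kept their call in every alternative run. TNFRSF10A was also lower in SW48, at 32.8 ± 3.38 CPM against 40.7 ± 0.0874 CPM in OVK18 (-0.31, SE 0.119, adjusted p = 0.0347). That call was lost without SW48 sgCh2-2 B (-0.22, adjusted p = 0.199), without OVK18 sgCh2-2 A (0.095) or B (0.108), and in other alternatives. TNFRSF10D was not called (0.17, interval -0.03 to 0.37, adjusted p = 0.110). The 2 lines differ in tissue of origin and in much else, and in bulk RNA fewer cells that express a gene cannot be told apart from less RNA per cell.

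TNFRSF10C, the decoy without an intracellular domain, was nearly absent from SW48 libraries. It held 1 and 0 counts in the sgWRN2 libraries of SW48, 0 and 2 in the sgWRN3 libraries and 3 and 1 in the sgCh2-2 libraries. In OVK18 it held 31 and 30 counts with sgWRN2, 43 and 49 with sgWRN3 and 29 and 49 with sgCh2-2. The 2 lines do not overlap, and SW48 stayed at or under the floor of 3 counts. Over the sgCh2-2 libraries the count ratio of OVK18 over SW48, per library size, was 16.7 (95% interval 6.27 to 62.8), and over all 6 libraries of each line 24.8 (11.8 to 62.3). Such intervals and floors cover counting error only. With WRN guides TNFRSF10C in OVK18 stood at 1.37 ± 0.394 CPM with sgWRN2 and 1.89 ± 0.0199 CPM with sgWRN3, against 1.32 ± 0.276 CPM with sgCh2-2. Neither guide moved it past the threshold (adjusted p = 1.0 for each). The sgWRN3 libraries both lay above the controls, as for 9.53% of all genes, with a log2 difference of 0.50 (interval -0.25 to 1.25). No fold of a WRN guide is given for TNFRSF10C in SW48, where all groups lie at the floor.

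TNFSF10, the ligand of the TRAIL receptors, was near the limit of detection. In SW48 it held 3 and 2 counts with sgWRN2, 3 and 3 with sgWRN3 and 2 and 5 with sgCh2-2. In OVK18 it held 0 counts in all 6 libraries. Over them the floor of 3 counts is 0.0195 CPM, and the exact 95% upper limit is 0.0240 CPM. Per library size and over all 6 libraries of a line, TNFSF10 in SW48 stood 7.99-fold above that floor of 3 counts. The exact 95% lower limit of the ratio, which takes in the counting error of both lines, was 5.86. FASLG, the ligand of FAS, held 0 counts in all 12 libraries. Neither ligand could thus be compared between guides at this depth.

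The targeted gene was read first among the guide effects. WRN stood at 35.6 ± 2.19 CPM with sgWRN2 and 49.6 ± 10.3 with sgWRN3 in SW48, against 101 ± 14.4 with sgCh2-2. In OVK18 it stood at 21.5 ± 0.724 CPM with sgWRN2 and 22.6 ± 0.564 with sgWRN3, against 35.9 ± 5.50 with sgCh2-2. Each of the 4 WRN-guide libraries of a line was below both of its controls. With sgWRN2 the log2 change of WRN was -1.51 in SW48 (SE 0.162, adjusted p = 0.000461) and -0.74 in OVK18 (SE 0.162, adjusted p = 0.0658). With sgWRN3 it was -1.03 in SW48 (SE 0.159, adjusted p = 0.438) and -0.67 in OVK18 (SE 0.161), and neither passed the threshold. The sgWRN3 tests thus did not call the targeted gene either.

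**Figure D2:**
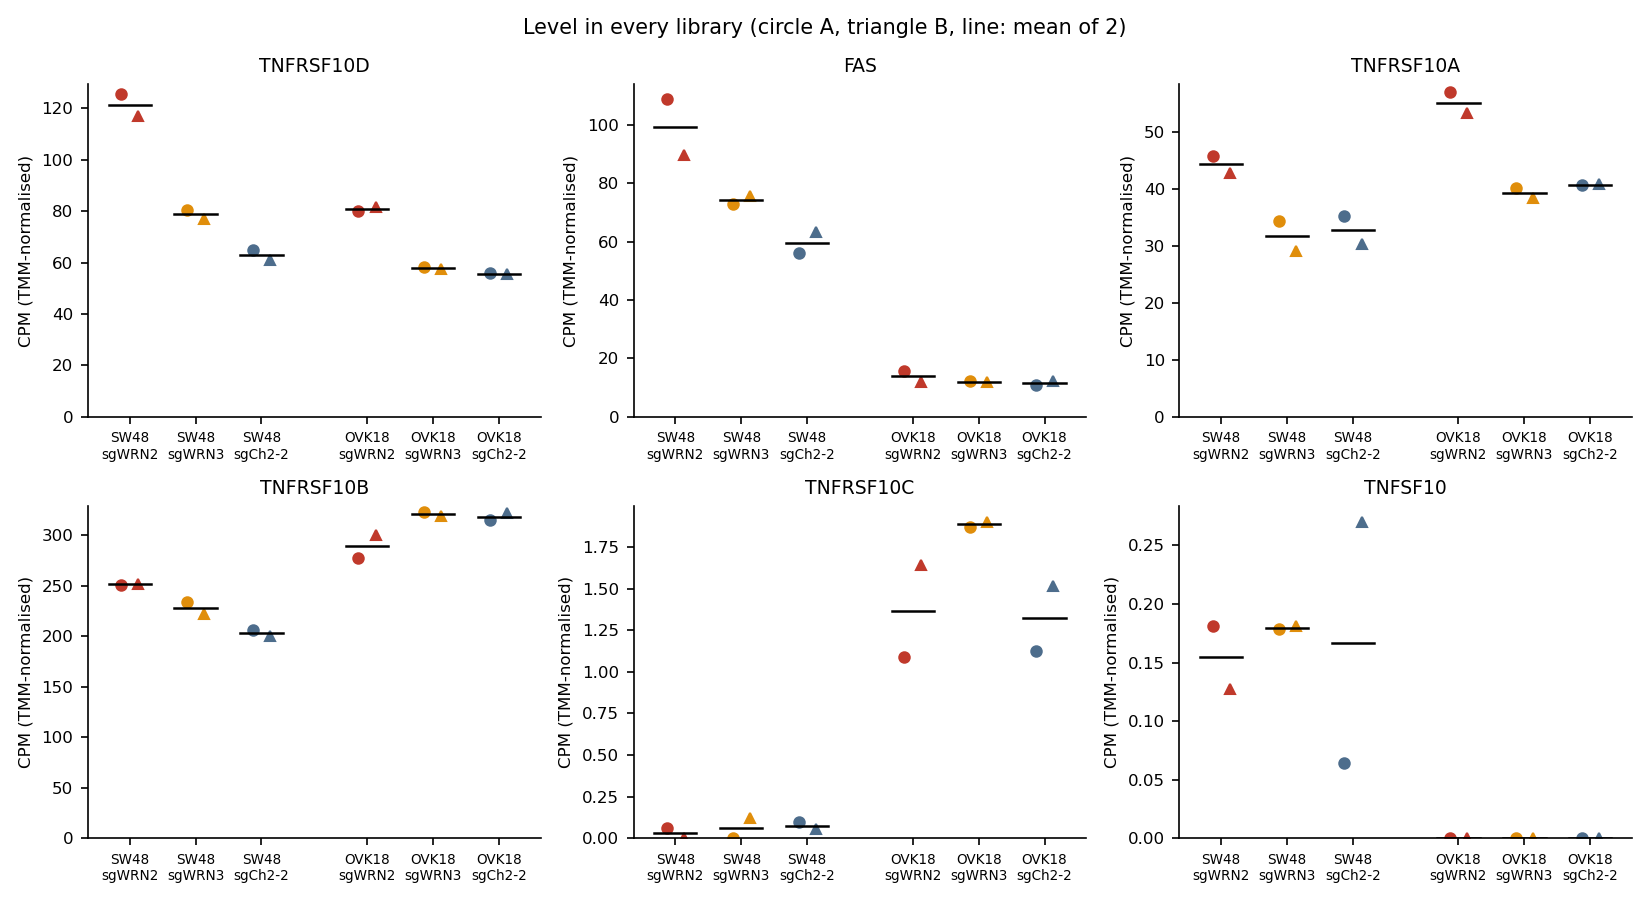
Level of the 6 genes in every library (CPM after TMM scaling, axes from 0; circle: library A, triangle: library B, line: mean of 2). TNFRSF10D lies higher with sgWRN2 than with sgWRN3 and sgCh2-2 in both lines, FAS does so in SW48, and TNFRSF10A sgWRN2 libraries lie above the other libraries of their line.

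TNFRSF10D, which binds TRAIL without a working death domain, had 2078 and 1834 counts in the sgWRN2 libraries A and B of SW48, 1350 and 1276 with sgWRN3, and 2023 and 1126 with sgCh2-2. Scaled to library size these are 126 and 117 CPM with sgWRN2, 80.5 and 76.9 CPM with sgWRN3, and 64.8 and 60.8 CPM with sgCh2-2. The 3 guides did not overlap, with sgWRN2 highest and the control lowest. With 2 libraries against 2 this is common: 21.6% of all genes lay above the SW48 controls with sgWRN2 and 9.89% with sgWRN3. TNFRSF10D rose 1.93-fold with sgWRN2 (log2 fold change 0.95, SE 0.0916, adjusted p = 0.000347). This call held in all 24 alternatives, with an adjusted p of at most 0.00841. With sgWRN3 the log2 fold change was 0.32 (SE 0.0915), which missed the threshold over all genes (unadjusted p = 0.00404, adjusted p = 1.0). It passed in edgeR without the sgWRN2 libraries and with a term for the letters A and B (adjusted p = 0.0149).
Over both guides the log2 fold change of TNFRSF10D in SW48 was 0.64 (SE 0.0809, adjusted p = 0.00507), and all 4 libraries lay above both controls. The call over both guides was lost without SW48 sgCh2-2 A (0.68, adjusted p = 0.0595), without SW48 sgCh2-2 B (0.59, adjusted p = 0.112) and without the sgWRN2 libraries (0.32, adjusted p = 1.0).

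In OVK18 TNFRSF10D had 2283 and 1487 counts with sgWRN2, 1339 and 1486 with sgWRN3 and 1442 and 1792 with sgCh2-2. That is 80.0 and 81.5 CPM with sgWRN2, 58.3 and 57.6 CPM with sgWRN3, and 56.0 and 55.5 CPM with sgCh2-2. The sgWRN2 libraries stood well apart, whereas those of sgWRN3 lay just above the controls. Of all genes, 19.2% lay above both OVK18 controls with sgWRN2 and 9.53% with sgWRN3. TNFRSF10D rose 1.45-fold with sgWRN2 (0.53, SE 0.0911, adjusted p = 0.0198). The call was lost without OVK18 sgCh2-2 A (0.56, adjusted p = 0.199), without OVK18 sgCh2-2 B (0.55, adjusted p = 0.192), without OVK18 sgWRN2 B (0.54, adjusted p = 0.0777) and with the 6 OVK18 libraries alone (0.55, adjusted p = 0.0911). A term for the letters A and B lost the sgWRN2 call too. With sgWRN3 the log2 fold change was 0.06 (interval -0.14 to 0.26). Over both guides it was 0.30 (SE 0.0797, adjusted p = 0.900), and 0.31 with an adjusted p of 0.0373 in DESeq2, the only 1 of 26 alternatives to call it.

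The guides were compared directly, because their effects on TNFRSF10D differ in size. In SW48 TNFRSF10D was higher with sgWRN2 than with sgWRN3 (0.62, SE 0.0914, adjusted p = 0.00893), and 1 of 5 tested genes was higher in that comparison, against 0.289% of all genes. Of those 5, TNFRSF10C lies at the floor in SW48 and could hardly be called. In OVK18 TNFRSF10D was also higher with sgWRN2 (0.48, SE 0.0913, adjusted p = 0.0367), again 1 of 5, against 0.437%. The SW48 guide difference was lost without SW48 sgWRN2 A (0.57, adjusted p = 0.115), sgWRN2 B (0.68, 0.0611) or sgWRN3 B (0.59, 0.115), and with the 6 SW48 libraries alone (0.61, 0.0539). The OVK18 guide difference was lost in 10 of 12 fits that leave out 1 library, with log2 differences of 0.48 to 0.52 and adjusted p of up to 0.237. The difference of the effect over both guides between SW48 and OVK18 was 0.34 for TNFRSF10D (interval 0.10 to 0.58) and missed the threshold (adjusted p = 1.0). None of the 5 tested genes passed that test of the lines, where edgeR called 0.0282% of all genes.

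FAS, the receptor of the FAS ligand, had 1800 and 1406 counts with sgWRN2 in SW48, 1222 and 1252 with sgWRN3 and 1752 and 1169 with sgCh2-2. These are 109 and 89.7 CPM with sgWRN2, 72.9 and 75.5 CPM with sgWRN3, and 56.1 and 63.2 CPM with sgCh2-2. The 3 guides again did not overlap, with an SD of 13.6 CPM between the sgWRN2 libraries. Both sgWRN2 libraries lay above both SW48 controls for 21.6% of all genes. FAS rose 1.67-fold with sgWRN2 (0.74, SE 0.140, adjusted p = 0.0130). The call was lost without SW48 sgCh2-2 A (0.65, adjusted p = 0.111), sgCh2-2 B (0.82, 0.0513) or sgWRN2 A (0.59, 0.177). A term for the letters A and B lost the sgWRN2 call of FAS too (adjusted p = 0.0569 in edgeR). With sgWRN3 the log2 fold change was 0.32 (interval 0.01 to 0.62, adjusted p = 1.0). Without the sgWRN2 libraries and with that term it passed (0.32, adjusted p = 0.0286 in edgeR). In that fit sgWRN3 is also the contrast over both guides.
Over both guides FAS in SW48 had a log2 fold change of 0.53 (SE 0.123), with all 4 libraries above both controls, and just missed the threshold (adjusted p = 0.0859). It passed in DESeq2 (0.54, adjusted p = 0.00369), in limma-voom (0.0464), with no filter on low counts (0.00841) and without OVK18 sgWRN2 A (0.0428) or B (0.0436). FAS with sgWRN2 and with sgWRN3 in SW48 differed by 0.42 (interval 0.12 to 0.73, adjusted p = 0.296).

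In OVK18 FAS had 448 and 218 counts with sgWRN2, 280 and 307 with sgWRN3 and 284 and 396 with sgCh2-2. Its levels were 15.7 and 11.9 CPM with sgWRN2, 12.2 and 11.9 CPM with sgWRN3, and 11.03 and 12.3 CPM with sgCh2-2. One sgWRN2 library was high and the other lay within the controls. The log2 fold change with sgWRN2 was 0.26 (interval -0.08 to 0.59, adjusted p = 0.513), and it was 0.03 without OVK18 sgWRN2 A and 0.45 without OVK18 sgWRN2 B. FAS-AS1, an antisense gene within the FAS locus, held 0 to 7 counts per library. Since the strand setting of the counting is not given in the sources used here, reads of the 2 genes cannot be told apart.

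TNFRSF10A, which signals through a death domain, had 755 and 671 counts with sgWRN2 in SW48, 575 and 482 with sgWRN3 and 1097 and 562 with sgCh2-2. In OVK18 it had 1622 and 972 counts with sgWRN2, 922 and 990 with sgWRN3 and 1046 and 1316 with sgCh2-2. Scaled, it stood at 44.2 ± 2.04 CPM with sgWRN2, 31.7 ± 3.69 with sgWRN3 and 32.8 ± 3.38 with sgCh2-2 in SW48. In OVK18 it stood at 55.1 ± 2.54 CPM with sgWRN2, 39.3 ± 1.24 with sgWRN3 and 40.7 ± 0.0874 with sgCh2-2. The sgWRN2 libraries lay above both other guides in each line, and the sgWRN3 libraries lay within or below the controls. Of all genes, 21.6% in SW48 and 19.2% in OVK18 also had both sgWRN2 libraries above both controls. With sgWRN2 the log2 fold change was 0.43 in SW48 (interval 0.17 to 0.69, adjusted p = 0.0862) and 0.44 in OVK18 (0.18 to 0.69, adjusted p = 0.121). These did not pass in edgeR, and did in DESeq2 (adjusted p = 0.0121 in SW48 and 0.00711 in OVK18), the only 1 of 24 alternatives to call them. TNFRSF10A with sgWRN3 had a log2 difference of -0.05 in each line (interval -0.31 to 0.21 in both). The difference between the guides was 0.48 in SW48 (adjusted p = 0.123) and 0.49 in OVK18 (adjusted p = 0.0875).

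TNFRSF10B, the most abundant of the receptors, had 4142 and 3945 counts with sgWRN2 in SW48, 3924 and 3675 with sgWRN3 and 6428 and 3712 with sgCh2-2. Its levels in SW48 were 251 ± 0.707 CPM with sgWRN2, 228 ± 8.77 with sgWRN3 and 203 ± 3.79 with sgCh2-2, so that all 4 WRN-guide libraries lay above both controls. With sgWRN2 the log2 fold change was 0.31 (interval 0.12 to 0.49, adjusted p = 0.0862), and over both guides 0.24 (interval 0.07 to 0.40, adjusted p = 0.292). These did not pass in edgeR, and did in DESeq2 (adjusted p = 0.00285 with sgWRN2 and 0.0150 over both guides). No other alternative called them.
In OVK18 TNFRSF10B had 7921 and 5478 counts with sgWRN2, 7408 and 8211 with sgWRN3 and 8103 and 10401 with sgCh2-2. Its levels there were 289 ± 15.9 CPM with sgWRN2, 321 ± 2.91 with sgWRN3 and 318 ± 5.20 with sgCh2-2. Both sgWRN2 libraries lay below both controls there, as for 21.4% of all genes, with a log2 difference of -0.14 (interval -0.32 to 0.04, adjusted p = 0.517). The difference of the effect over both guides between SW48 and OVK18 was 0.30 for TNFRSF10B (interval 0.07 to 0.53) and missed the threshold (adjusted p = 1.0).

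Counted over the 5 tested genes, 2 were called higher with sgWRN2 in SW48 (FAS and TNFRSF10D), against 1.13% of all genes tested, and 1 in OVK18 (TNFRSF10D), against 0.535%. The 5 include TNFRSF10C, which held at most 3 counts per library in SW48 and could hardly be called there. The SW48 counts thus rest on the other 4 genes. Over both guides 1 rose in SW48, against 0.254%, and none passed in OVK18, where 0.0211% of all genes were higher. None of the 5 fell in any of these, against 1.95% of all genes with sgWRN2 and 0.613% over both guides in SW48, and 0.261% and 0.00704% in OVK18. With sgWRN3 alone 0 of 5 passed, and edgeR called 0 of all genes in each line. At an unadjusted p under 0.05 there were 262 genes (1.85%) in SW48 and 116 (0.817%) in OVK18. Both shares are smaller than the share of 0.05 that no effect at all would give. The test was thus conservative for sgWRN3, and 0 of 5 cannot be read as no change. DESeq2 called 9 genes with sgWRN3 in SW48 and 1 in OVK18, none of them among the 5. In SW48 3 of the 5 (FAS, TNFRSF10B and TNFRSF10D) had all 4 WRN-guide libraries above both controls, against 6.01% of all genes, and in OVK18 1 (TNFRSF10D), against 2.9%. For 1 guide alone, with 2 libraries against 2, such a separation was common. With sgWRN2, 21.6% of all genes lay above both controls in SW48 and 19.2% in OVK18. All comparisons within a line share its 2 control libraries, so these counts are not independent of each other.

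**Figure D3:**
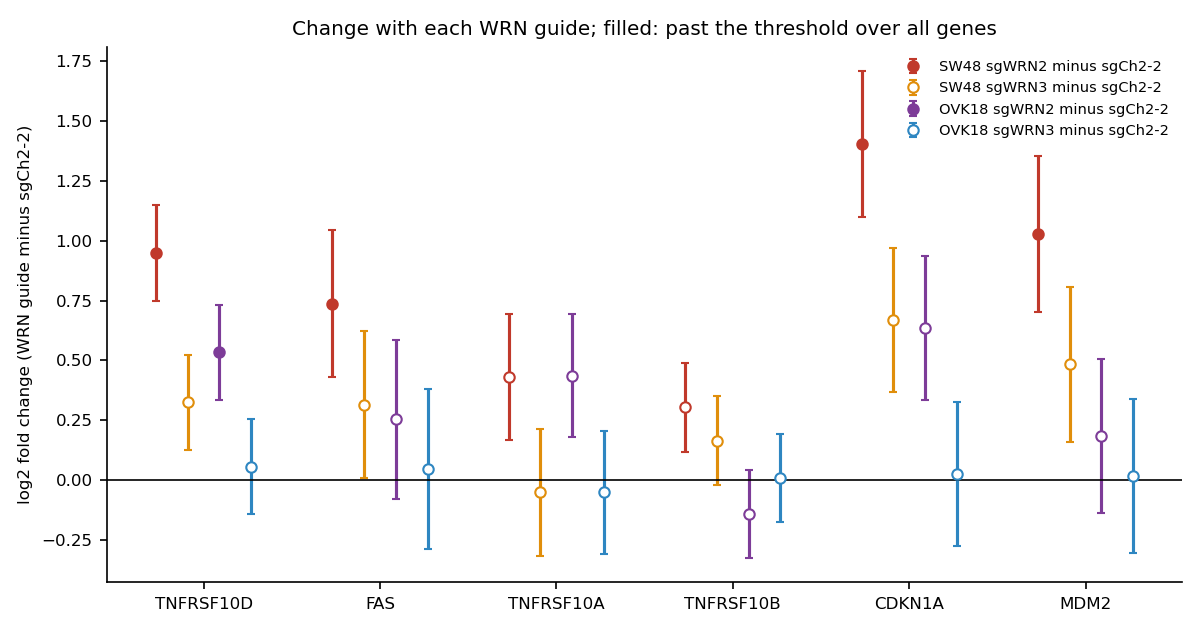
Log2 fold change of each WRN guide over sgCh2-2 for 4 receptors and, for comparison, the p53 targets CDKN1A and MDM2, with 95% intervals from the edgeR fit; filled points passed an adjusted p of 0.05. TNFRSF10D is filled with sgWRN2 in both lines, FAS, CDKN1A and MDM2 with sgWRN2 in SW48, and no sgWRN3 point is filled.

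The balance of the decoy TNFRSF10D to a single signalling receptor, TNFRSF10B, was read as the ratio of counts within a library, which no scaling between libraries can move. This ratio was chosen after the values had been seen. It does not speak for TNFRSF10A, the other signalling TRAIL receptor. With sgWRN2 in OVK18 the log2 fold change was 0.53 for TNFRSF10D, 0.44 for TNFRSF10A and -0.14 for TNFRSF10B. In SW48 these were 0.95, 0.43 and 0.31. The ratio of TNFRSF10D to TNFRSF10A was not tested. TNFRSF10D over TNFRSF10B was 0.502 and 0.465 with sgWRN2 in SW48, 0.344 and 0.347 with sgWRN3, and 0.315 and 0.303 with sgCh2-2. In OVK18 it was 0.288 and 0.271 with sgWRN2, 0.181 and 0.181 with sgWRN3, and 0.178 and 0.172 with sgCh2-2. All 4 WRN-guide libraries lay above both controls in each line, with sgWRN3 close to them. The mean log2 ratio was higher with WRN guides by 0.40 in SW48 and by 0.36 in OVK18. An exact two-sided permutation test of 4 against 2 libraries, which doubles 1 tail, gave p = 0.133 in each line. That is the smallest p this form of the test can give, so it decides nothing here. It also pools the libraries of 2 guides that differed in size of effect.
For FAS over TNFRSF10B the log2 difference was 0.29 in SW48 (exact permutation p = 0.267) and 0.21 in OVK18 (exact permutation p = 0.40). For TNFRSF10A over TNFRSF10B it was -0.04 in SW48 and 0.26 in OVK18 (exact permutation p = 0.800 for each). In OVK18 the TNFRSF10A ratio was 0.205 and 0.177 with sgWRN2, 0.124 and 0.121 with sgWRN3, and 0.129 and 0.127 with sgCh2-2. The sgWRN2 ratios lay above the controls, and the sgWRN3 ratios lay close to them, just below. These 6 tests form 1 family, and none can pass at this number of libraries.

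**Figure D4:**
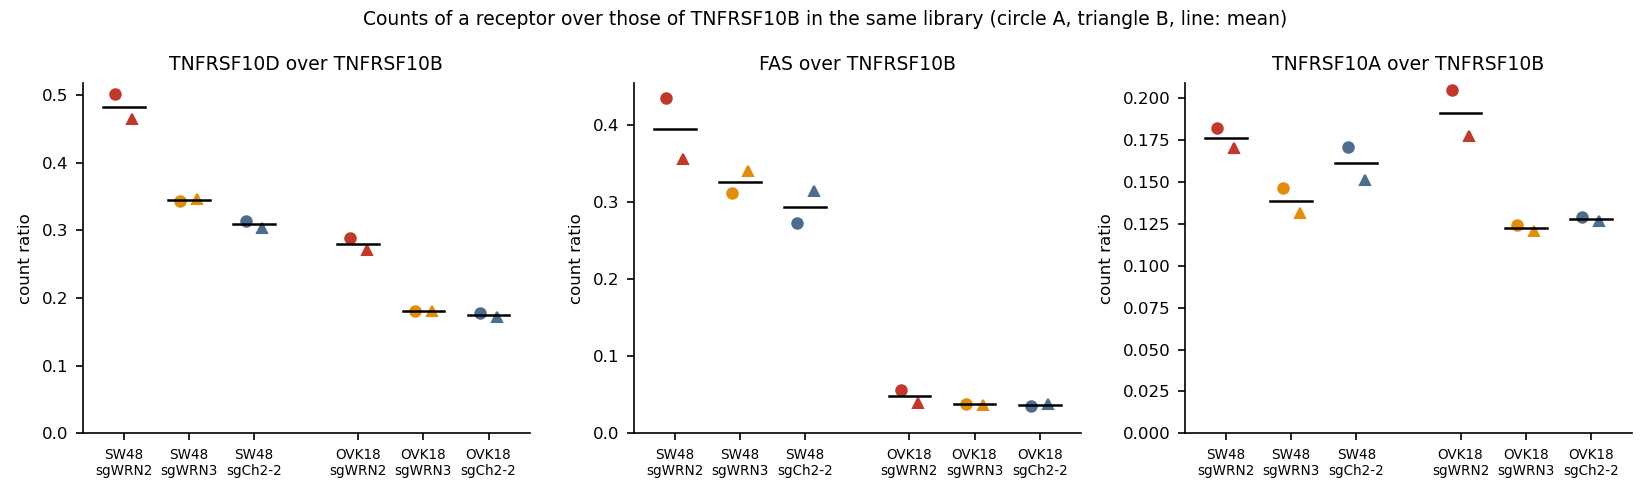
Counts of TNFRSF10D (left), FAS (middle) and TNFRSF10A (right) over those of TNFRSF10B in the same library (axes from 0; circle: library A, triangle: library B, line: mean). TNFRSF10D over TNFRSF10B runs from 0.344 to 0.502 with WRN guides and from 0.303 to 0.315 with sgCh2-2 in SW48, and from 0.181 to 0.288 and from 0.172 to 0.178 in OVK18.

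The remaining genes of the pathway were read from lists chosen with earlier results of these data known. Of 14 other death receptors, decoys and ligands of the family, 10 were tested, and 1 rose with sgWRN2 in SW48, against 1.13% of all genes, with a list median of 0.21 against 0.02 over all genes. It was TNFSF15, a ligand of TNFRSF25, at 5.04 ± 0.0557 FPKM with sgWRN2 against 3.11 ± 0.169 with sgCh2-2 (0.77, SE 0.149, adjusted p = 0.0141). None passed with sgWRN2 in OVK18, where 0.535% of all genes rose and the list median was 0.07. TNFRSF1A, the main receptor of tumour necrosis factor, was not called with sgWRN2 (0.12 in SW48 and 0.22 in OVK18; adjusted p = 0.826 and 0.537). TNFRSF11B, a soluble receptor that also binds TRAIL, held 64 counts over the sgWRN2 libraries and 27 over the sgCh2-2 libraries of OVK18 (1.51, SE 0.327, adjusted p = 0.0627). LTBR, another receptor of the family, was high in SW48 and held 2 counts over the OVK18 controls and none with sgWRN2, so its fitted value of -2.84 there rests on almost no reads.

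Downstream of the receptors, 22 genes of the death-inducing complex and its effectors and inhibitors were all tested. Of these 1, BIRC3, rose with sgWRN2 in SW48, against 1.13% of all genes, and none passed in OVK18, against 0.535% higher and 0.261% lower. BIRC3, an inhibitor of apoptosis protein that is a known NF-kB target, stood at 3.03 ± 0.252 FPKM with sgWRN2 against 1.59 ± 0.450 with sgCh2-2 in SW48 (0.999, SE 0.226, adjusted p = 0.0339), and had a log2 difference of -0.27 in OVK18 (adjusted p = 0.636). The list median was -0.02 in SW48 and 0.01 in OVK18, near the medians of all genes. FADD, the adaptor of FAS and the signalling TRAIL receptors, had -0.07 in SW48 and 0.09 in OVK18 with sgWRN2 (adjusted p = 0.961 and 0.884). CASP8, the initiator caspase, had 0.09 and 0.20 (0.837 and 0.468). CFLAR, which competes with caspase-8 at the receptor, had 0.28 and -0.03 (0.328 and 0.964). CASP10, the other initiator caspase, stood at 0.0365 ± 0.0276 FPKM in SW48 and 0.551 ± 0.0258 FPKM in OVK18 with sgWRN2.

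A list of 25 p53-activated genes, 24 of them tested, serves as a scale for these changes; it includes FAS and TNFRSF10B. With sgWRN2 in SW48, 11 of the 24 rose, FAS among them, and none fell, against 1.13% higher and 1.95% lower of all genes. The list median was 0.55, against 0.02 over all genes. In OVK18 1 rose, against 0.535% of all genes, which was PLK2 (1.02, SE 0.110, adjusted p = 0.00174), with a list median of 0.22. CDKN1A, the cyclin-dependent kinase inhibitor p21, stood at 977 ± 44.2 CPM with sgWRN2 and 587 ± 96.0 with sgWRN3 in SW48, against 369 ± 60.9 with sgCh2-2. GDF15, a secreted stress factor, had a log2 fold change of 1.51 with sgWRN2 in SW48 (SE 0.204, adjusted p = 0.00180), and BTG2, an antiproliferative gene, of 0.79 (SE 0.0906, adjusted p = 0.000720). BBC3, which encodes the pro-apoptotic protein PUMA, had 0.80 and lay at the threshold (adjusted p = 0.0499). The list ran from 0.14 to 1.51 with sgWRN2 in SW48, where its own members FAS and TNFRSF10B stood at 0.74 and 0.31. TNFRSF10D, which is not in the list, stood at 0.95.

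**Figure D5:**
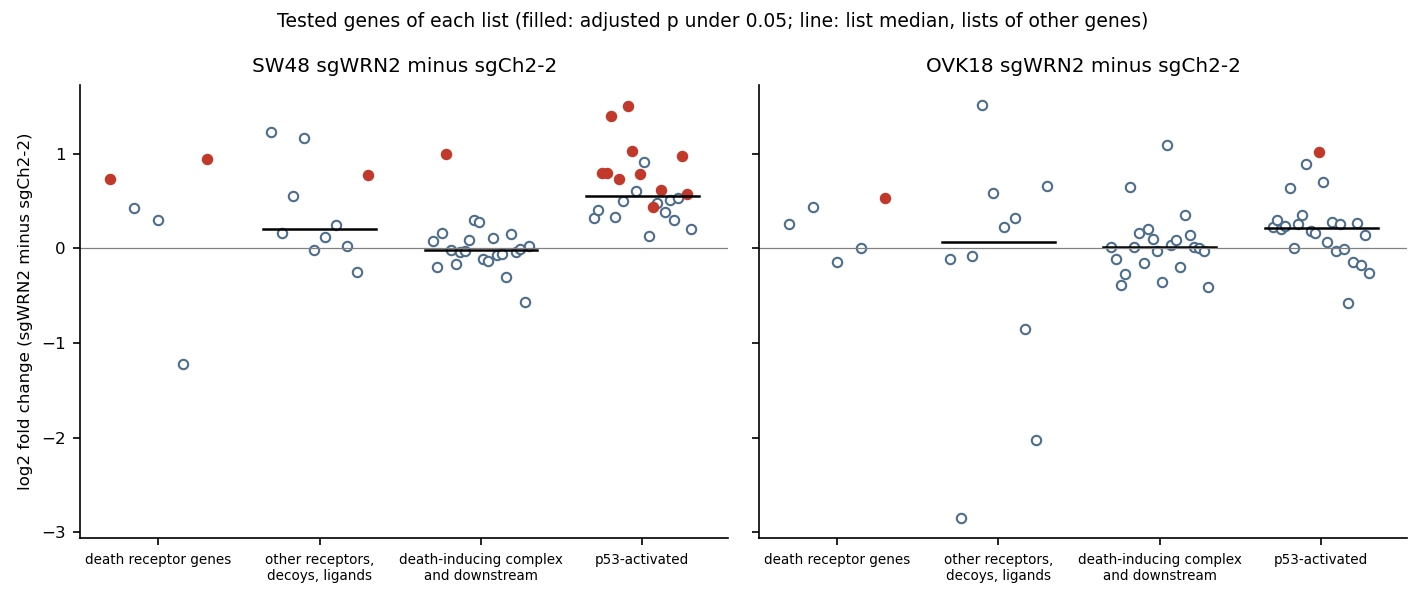
Log2 fold change of sgWRN2 over sgCh2-2 in SW48 (left) and OVK18 (right) for the tested genes of 4 lists; filled points passed an adjusted p of 0.05, and lines give list medians except for the 5 receptor genes. In SW48 11 p53-activated genes are filled, FAS and TNFRSF10D among the receptor genes, and 1 gene in each of the remaining lists, and in OVK18 1 p53-activated gene and TNFRSF10D are filled.

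Which genes followed the receptors most closely was read as Pearson's r over the 12 libraries of log2 CPM centred within each line, given as a description, since these libraries share the contrast of guides, the line means and the depth. For TNFRSF10D the 3 closest genes were RC3H2 (r = 0.973), CDKN1A (0.969) and STAT3 (0.967). For FAS they were GNE (0.972), BECN1 (0.966) and MDM2 (0.965), of which MDM2 encodes the ubiquitin ligase that restrains p53. For TNFRSF10A they were HIST1H2BK (0.967), CCRN4L (0.966) and KIF3B (0.962), and for TNFRSF10B LAMA3 (0.929), MAP2K6 (0.895) and PDGFA (0.893). Among the receptors themselves TNFRSF10D had r = 0.883 with TNFRSF10A and 0.866 with FAS, against 0.472 with TNFRSF10B. TNFRSF10A and TNFRSF10B had 0.163.

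Markers of other cells were checked in both lines. Of 8 intestinal markers 6 stood at a mean of 1 CPM or more in SW48 (summed level 793 to 894 CPM) and none in OVK18. Of 6 Mullerian and ovarian markers 2 did so in OVK18 (summed level 74.3 to 81.6 CPM), where WFDC2 was at 0, and 4 in SW48 (102.6 to 118.9 CPM). Of these 6 genes MSLN, PAX8, HOXA10 and WFDC2 were higher in SW48 than in OVK18 sgCh2-2 libraries, and HOXA11 and WT1 were lower, so this list as a whole does not bear out the ovarian label of OVK18. Of 7 fibroblast markers 4 did so in OVK18 (summed level 410 to 481 CPM) and none in SW48 (0.324 to 0.577 CPM). Of 8 leukocyte and endothelial markers 2 did so in SW48 and 1 in OVK18, with a summed level of at most 14.1 CPM. The part of these genes in the differences between the lines was not tested.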

How the data were processed

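The authors deposited a table of raw gene counts and a table of non-integer values, without headers that name a unit. The submitters' processing notes name bcl2fastq 2.18, STAR 2.5, Cufflinks 2.2.1 and hg19. The deposited non-integer values were read as FPKM, since the number of counts per unit of value rose with transcript length (Spearman's rho 0.787 across 10607 genes, which are not independent replicates). Annotation and strand settings are not given in the sources used here. The 92 spike-in features held 0 counts and were left out, as were 28 symbols turned into dates from naming.

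Counts were fitted in R 4.3.3 with edgeR 4.0.16: TMM, filterByExpr, 1 coefficient for each of 6 groups, robust quasi-likelihood with 6 residual degrees of freedom. The SE is the log2 fold change over the square root of F. Levels are mean ± SD of 2 libraries. The steps were run on simulated counts of independent libraries for 1 comparison only, both WRN guides over sgCh2-2 in SW48. The other comparisons were not simulated. Replicate libraries differed beyond counting error (chi-square per gene 8.35 to 24.2). Floors are 3 counts and intervals are at 95 percent.

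The members and lists were chosen with earlier results of these data known. Genes named are the 6 receptors and ligand, WRN, CDKN1A and MDM2, list genes past the threshold (up to 6 by p in each list and comparison) or with high levels, and 3 similar genes per receptor with mean log2 CPM of at least 1. FADD, CASP8, CFLAR, CASP10, TNFRSF11B, BBC3, LTBR, FASLG and FAS-AS1 were added for their role or after their values were seen. Alternatives were other scalings and filters, DESeq2 1.42.0, limma 3.58.1 (voom, and FPKM with pseudocounts 1 and 0.1), only 1 line, a replicate block, leaving out the sgWRN2 libraries or each library. Leaving out libraries of groups outside a comparison was added after seeing the data.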

Additional observations from a re-analysis of the deposited data

How the results depend on the processing

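With 2 libraries a group, single calls rest on few values. The rise of TNFRSF10D with sgWRN2 in SW48 kept its direction and its call in every alternative. Over the results for single receptor genes, 1149 alternative values kept direction and side of the threshold, 36 lost the call, 18 gained it and 33 changed sign; the cause was not tested for any of these. RLE scaling moved the share of higher calls with sgWRN2 in OVK18 to 79.6%, against 67.3% with TMM, and for sgWRN2 over sgWRN3 in OVK18 to 70.5%, against 58.5%. The depth leaves TNFSF10 in both lines and TNFRSF10C in SW48 without a usable comparison.

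The letters A and B were not taken to pair the libraries, since the labels give no shared culture or day and not every correlation of A minus B was positive. Between guides of a line it ran from -0.226 to 0.413. Among the sgWRN3 and sgCh2-2 groups of both lines every correlation was 0.331 or higher, that between the sgWRN2 groups of the lines was 0.351, and sgWRN2 against the others gave -0.304 to 0.022. With the replicate block, the genes called were 28 for both guides in SW48, 2 for both guides in OVK18, 0 for the difference between lines (356 at an unadjusted p under 0.05 in edgeR; 11 in DESeq2 without the block), 265 for sgWRN2 in SW48, 38 for sgWRN2 in OVK18, 43 for sgWRN2 over sgWRN3 in SW48 and 31 in OVK18. The receptor genes called with the block were 1 for sgWRN2 in SW48, where FAS had an adjusted p of 0.0569 in edgeR, 0 for sgWRN2 in OVK18 (TNFRSF10D, 0.0744) and 0 for sgWRN2 over sgWRN3 in OVK18 (0.0906). Without the sgWRN2 libraries and with the replicate block, 2 receptor genes were called for sgWRN3 in SW48, which is then the contrast over both guides too: TNFRSF10D (0.33, adjusted p = 0.0149 in edgeR) and FAS (0.32, 0.0286). That fit called 153 genes for sgWRN3 in SW48 and 12 in OVK18, again also the number for both guides there.

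Numbers of all genes called were 123 for both guides in SW48, 4 for both guides in OVK18, 4 for the difference between lines, 437 for sgWRN2 in SW48, 113 for sgWRN2 in OVK18, 134 for sgWRN2 over sgWRN3 in SW48 and 106 in OVK18. With no filter on low counts they were 292, 30, 17, 688, 439, 334 and 518 in the same order, with 22 for sgWRN3 in SW48 and 2 in OVK18. With DESeq2 they were 298, 30, 11, 709, 430, 298 and 530, with 9 for sgWRN3 in SW48 and 1 in OVK18. Limma-voom called 161 genes for sgWRN2 over sgWRN3 in OVK18. With only the 6 libraries of a line, 44 genes were called for both guides in SW48, 1 for both guides in OVK18, 30 for sgWRN2 in OVK18, 34 for sgWRN2 over sgWRN3 in SW48 and 25 in OVK18. Limma on log2(FPKM + 1) called 236 for both guides in SW48, 1 for sgWRN3 in SW48, 300 for sgWRN2 in OVK18, 226 for sgWRN2 over sgWRN3 in SW48 and 307 in OVK18. On log2(FPKM + 0.1) it called 191 for both guides in SW48, 11 for both guides in OVK18, 7 for the difference between lines, 2 for sgWRN3 in SW48, 216 for sgWRN2 in OVK18, 2 for sgWRN3 in OVK18, 219 for sgWRN2 over sgWRN3 in SW48 and 198 in OVK18. RLE scaling and a mean of at least 5 CPM each gave 2 for the difference between lines. Without the sgWRN2 libraries, edgeR called 0 genes for both guides in SW48 (316 at an unadjusted p under 0.05), 0 in OVK18 (125) and 0 for the difference between lines (162). Leaving out 1 library at a time, the count ran from 0 to 154 for both guides in SW48 (0 without SW48 sgCh2-2 B, with 681 at an unadjusted p under 0.05 in edgeR), 0 to 4 for both guides in OVK18, 0 to 3 for the difference between lines, 143 to 502 for sgWRN2 in SW48, 18 to 188 for sgWRN2 in OVK18, 3 to 159 for sgWRN2 over sgWRN3 in SW48 and 12 to 155 in OVK18.

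Receptor genes called were 2 for both guides in SW48 and 2 for sgWRN2 over sgWRN3 in OVK18 with no filter on low counts. With DESeq2 they were 3 for both guides in SW48, 1 for both guides in OVK18, 4 for sgWRN2 in SW48, 2 for sgWRN2 in OVK18, and 2 for sgWRN2 over sgWRN3 in each line. Limma-voom called 2 for both guides in SW48. With only the 6 libraries of a line, edgeR called 0 for sgWRN2 in OVK18 and 0 for sgWRN2 over sgWRN3 in each line, and without the sgWRN2 libraries 0 for both guides in SW48. Leaving out 1 library at a time gave 0 to 2 for both guides in SW48, 1 to 2 for sgWRN2 in SW48, 0 to 1 for sgWRN2 in OVK18 and 0 to 1 for sgWRN2 over sgWRN3 in each line.

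The sign changes were of values that no test called. Without the sgWRN2 libraries TNFRSF10A had -0.051 in SW48 and -0.051 in OVK18, and with the replicate block as well -0.048 and -0.052. TNFRSF10B in OVK18 had 0.010 in both of these fits. The difference between lines of TNFRSF10A was 0.0018 with RLE scaling, 0.0016 with the replicate block, 6.42e-05 without the sgWRN2 libraries and 0.0040 without them and with the block, and ran from -0.11 to 0.11 with 1 library left out. TNFRSF10C with sgWRN2 in OVK18 had -0.011 in limma-voom and ran from -0.27 to 0.30 with 1 library left out. TNFRSF10B with sgWRN3 in OVK18 had -0.0136 on log2(FPKM + 1) and -0.0138 on log2(FPKM + 0.1), and ran from -0.023 to 0.015. Leaving out 1 library, TNFRSF10A with sgWRN3 in SW48 ran from -0.17 to 0.063, FAS with sgWRN3 in OVK18 from -0.042 to 0.12 and FAS with sgWRN2 over sgWRN3 in OVK18 from -0.013 to 0.42. TNFRSF10C in SW48 ran from -3.97 to 0.56 with sgWRN3 and from -3.59 to 2.74 with sgWRN2 over sgWRN3, all from 0 to 3 counts per library.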
